A study of Mus musculus with 36 samples.

Results

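Ptgs1, Ptgs2, Ptges, Hpgds, Tbxas1, Ptger2, Ptger4, Alox5, Alox5ap and Ltc4s make or sense prostaglandins, thromboxane and leukotrienes. They were taken by gene name from the count table, which gave 10 genes of the 54532 in the table, and each of them passed the filter on low counts in each comparison. The counts come from RNA sequencing of bone-marrow-derived macrophages (BMDMs), which were grown with the macrophage growth factor MCSF from adult female C57BL/6 mice. The WT macrophages carried the floxed Bmal1 allele on both chromosomes and no Cre (3 replicates), and the KO macrophages carried the same alleles together with Cre driven by the myeloid LysM promoter (6 replicates). Each replicate was given DMSO vehicle, 100 µM CCM, 100 nM LPS or both agents over 6 h, which made 8 groups and 36 libraries. CCM (Core Circadian Modulator) is a small molecule that binds the PASB domain of the clock transcription factor BMAL1, and LPS is a bacterial cell wall component that macrophages sense. LysM-Cre does not have to delete its target in every cell, and the study counts its replicates in mice, while the labels do not say which libraries came from 1 mouse.

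Libraries held 13469262 to 28288923 counts on genes. The targeted gene is listed as Arntl, and its counts cover the whole gene rather than the floxed exon. It was at 7.28 to 12.9 CPM (the count scaled to a common library size) in WT libraries, with a median of 9.54. KO libraries lay at 2.13 to 10.7 CPM, with a median of 7.28, so the genotypes overlapped. In each treatment the lowest KO library was replicate 6. Its vehicle library held 2.97 CPM and its CCM library 5.01 CPM, where the next lowest of either group held 6.44 CPM. Under LPS it was at 2.13 against 6.39 CPM, and under both agents at 3.94 against 4.53 CPM. Fits without replicate 6 thus leave out the KO replicate with the least Arntl. The libraries of KO replicate 6 stood apart: their median correlation with the other libraries of the group was 0.899 to 0.932, against 0.966 to 0.988 for the other KO libraries. Summed over 7 macrophage markers (Adgre1, Cd68, Csf1r, Itgam, Mertk, Fcgr1 and Cd14), the level was 4290 to 8580 CPM, and 3510 to 8000 CPM in KO replicate 6. This sum differed by treatment, at 4430 to 4760 CPM with vehicle and 7710 to 8020 CPM with LPS in WT. The markers of 5 genes for fibroblasts summed to 304 to 1710 CPM, led by Col1a1 and Col1a2, and those of 4 genes for eosinophils to 31.4 to 76.7 CPM. The 6 lymphocyte markers were at 2.32 to 4.1 CPM in KO replicate 6 against 0.623 to 2.24 CPM in all other libraries. In bulk RNA, fewer cells of a type and less RNA per cell cannot be told apart.

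Prostanoids start with the release of arachidonic acid from membranes, which the cyclooxygenases COX-1 (Ptgs1) and COX-2 (Ptgs2) turn into prostaglandin H. Terminal synthases then make prostaglandin E (microsomal prostaglandin E synthase, Ptges), prostaglandin D (hematopoietic prostaglandin D synthase, Hpgds) or thromboxane A (Tbxas1), and Ptger2 and Ptger4 encode the prostaglandin E receptors that raise cyclic AMP. On the other branch, 5-lipoxygenase (Alox5) with its activating protein FLAP (Alox5ap) makes leukotriene A, which leukotriene C synthase (Ltc4s) joins to glutathione. COX-2 and Ptges are the classic inducible pair of inflamed macrophages.

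The 250 bases upstream of the RefSeq start on mouse build GRCm38.p6 are shown for Ptgs2 and Ptges, which LPS raised, for Ptgs1, the cyclooxygenase that LPS lowered, and for Ptger2, which moved against Ptgs2 with CCM under LPS. Capitals mark matches to any of the 7 motifs searched, and the windows lie at chr1:150099781-150100030 (plus strand), chr2:30903298-30903547 (minus strand), chr2:36230176-36230425 (plus strand) and chr14:44987861-44988110 (plus strand) in the order Ptgs2, Ptges, Ptgs1 and Ptger2.
Ptgs2: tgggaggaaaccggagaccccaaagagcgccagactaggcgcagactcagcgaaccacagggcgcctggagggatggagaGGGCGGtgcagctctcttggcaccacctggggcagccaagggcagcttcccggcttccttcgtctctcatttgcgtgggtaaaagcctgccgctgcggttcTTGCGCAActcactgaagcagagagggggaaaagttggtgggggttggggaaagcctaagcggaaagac
Ptges: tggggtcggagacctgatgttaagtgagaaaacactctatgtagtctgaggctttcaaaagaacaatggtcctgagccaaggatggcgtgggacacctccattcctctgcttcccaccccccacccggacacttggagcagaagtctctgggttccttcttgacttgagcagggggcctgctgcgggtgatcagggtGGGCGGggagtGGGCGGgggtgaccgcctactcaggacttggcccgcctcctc
Ptgs1: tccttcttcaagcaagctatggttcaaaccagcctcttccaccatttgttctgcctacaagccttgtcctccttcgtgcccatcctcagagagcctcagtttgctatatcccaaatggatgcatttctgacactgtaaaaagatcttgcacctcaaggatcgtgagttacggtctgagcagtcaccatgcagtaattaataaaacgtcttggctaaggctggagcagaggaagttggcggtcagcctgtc
Ptger2: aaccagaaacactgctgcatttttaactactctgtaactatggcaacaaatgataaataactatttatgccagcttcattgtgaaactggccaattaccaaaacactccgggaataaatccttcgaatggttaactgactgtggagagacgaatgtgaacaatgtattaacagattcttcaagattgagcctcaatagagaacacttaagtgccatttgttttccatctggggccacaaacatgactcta
The Ptgs2 window holds 1 GC box and 1 C/EBP-type site, and the Ptges window 2 GC boxes. Those of Ptgs1 and Ptger2 show none of the motifs in these letters.

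The search covered 300 bases per gene, 250 before and 50 after the start, on both strands, and the motifs were chosen after the Ptgs2 sequence was seen. RefSeq windows were at hand for 9 of the 10 genes, all but Alox5ap. Just after the RefSeq start, in the annotated first exon, Ptgs2 has an E-box, the CACGTG sequence that BMAL1 and its partner CLOCK are known to bind. The E-box shares 2 bases with the CRE core site CGTCA. Where transcription of Ptgs2 starts in these cells was not measured, so positions hold for the RefSeq start alone. With a start further downstream, the joined site would lie in the promoter. The site is shown because Ptgs2 was the only one of the 9 genes with an E-box in its window, with both motifs in capitals (bases 14 to 22 from the start, chr1:150100033-150100062, plus strand).
Ptgs2 E-box and CRE core site: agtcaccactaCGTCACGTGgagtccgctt
An E-box was found in 7.15% of all 32851 RefSeq windows of this length and a CRE core site in 20.8%. The 2 motifs overlapped in this way in 0.451% of the windows. The other shares were 35.7% for the GC box GGGCGG, 10.8% for the C/EBP-type site TTGCNNAA, 20.7% for an NF-kB-type site, 7.81% for the AP-1 site TGANTCA and 13.6% for the TATA box TATAAA. Binding of BMAL1 was not measured in these libraries, and a match is a description of the sequence.

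The first question was how LPS alone changed these genes. In WT macrophages LPS raised Ptgs2 and Ptges, lowered 7 genes and left Ptger4 short of the threshold, so 9 of 10 passed an adjusted p of 0.05 (edgeR quasi-likelihood test, Benjamini-Hochberg over all genes tested), where 63% of all 14501 genes tested did. Of all genes tested, 30.6% passed as higher and 32.4% as lower. The same 9 genes passed in KO macrophages, where the share over all genes was 47.1%, with 22.4% higher and 24.7% lower. The median change of the 10 genes was -1.04 on the log2 scale in WT and -1.08 in KO, beside -0.05 over all genes in both. The groups did not overlap for 9 genes in WT (68.9% of all genes) and for 8 in KO (30.6%).

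**Figure D1:**
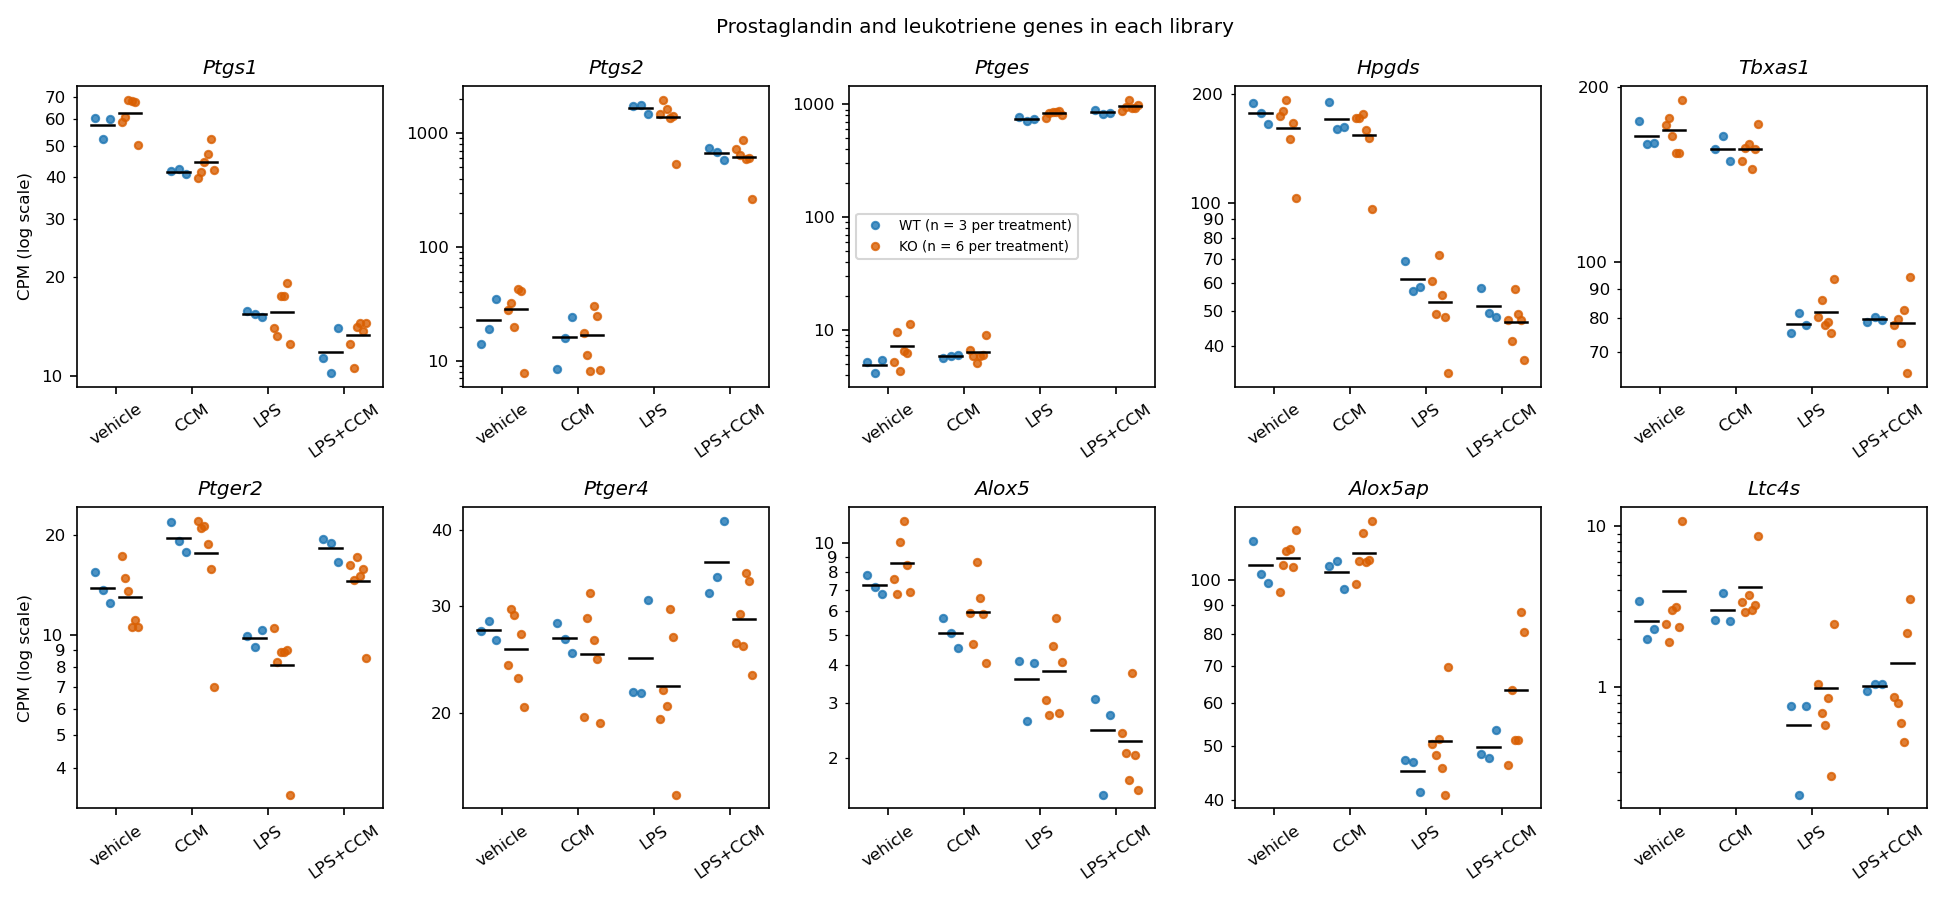
Level of each of the 10 genes in each of the 36 libraries, as CPM on a log scale, by treatment (x axis) and genotype (blue, WT, n = 3 per treatment; orange, KO, n = 6), with the mean of each group as a line. Ptgs2 and Ptges reach at least 263 CPM in each library given LPS and at most 42.5 CPM in each library without it, and the other 8 genes change by far less.

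Ptgs2, on the plus strand of chromosome 1 (150100031 to 150108227, GRCm38, 11 exon blocks), was at 14.1, 18.9 and 35.2 CPM in the 3 WT vehicle libraries and at 1747, 1789 and 1463 CPM with LPS. No vehicle library came near an LPS library. The rise was 6.18 on the log2 scale (SE 0.309), or 72.7-fold (edgeR, adjusted p = 5.82e-08, higher in 3 of 3 same-numbered libraries). In KO macrophages the lowest, median and highest vehicle libraries were at 7.80, 30.1 and 42.5 CPM and those with LPS at 541, 1447 and 1973 CPM, a rise of 5.59 (SE 0.435, edgeR, adjusted p = 2.07e-07). The lowest value of both KO groups belonged to replicate 6, and the rise was 5.56 without it.

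Ptges (chromosome 2, 30889471 to 30929863, minus strand) showed the largest change of the 10. The WT vehicle libraries held 5.18, 4.15 and 5.47 CPM and the LPS libraries 772, 719 and 737 CPM. The groups were far apart and the LPS libraries close together (743 ± 26.8 CPM, SD, n = 3). LPS raised Ptges by 7.22 on the log2 scale in WT (SE 0.102, 149-fold, edgeR, adjusted p = 1.8e-11). KO libraries went from 4.29, 6.42 and 11.3 CPM (lowest, median, highest) to 754, 848 and 880 CPM, a rise of 6.84 (SE 0.26, edgeR, adjusted p = 2.92e-10). RefSeq's start for Ptges is not the only one, since a longer annotated transcript begins further upstream, and the counts cover the whole gene.

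Ptgs1 (chromosome 2, 36230426 to 36252272, plus strand) went the other way from Ptgs2. Its WT libraries were at 60.6, 52.2 and 60.1 CPM with vehicle and at 15.8, 15.4 and 15.1 CPM with LPS, with no overlap. The change was -1.90 on the log2 scale (SE 0.08, edgeR, adjusted p = 1.48e-08). KO libraries fell from 50.3, 64.4 and 68.9 CPM to 12.5, 15.7 and 19.2 CPM (lowest, median, highest), a change of -2.01 (SE 0.129, edgeR, adjusted p = 3.11e-08).

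Per kb of exon, Ptgs2 made up 24.4% ± 8.36 (SD, n = 3) of the summed level of the 2 cyclooxygenases in WT vehicle libraries and 98.9% ± 0.103 with LPS. In KO the shares were 26.6% ± 9.08 and 98.5% ± 0.643 (n = 6). The range with vehicle was 16.5 to 33.2% in WT and 11.6 to 34.5% in KO, so the vehicle libraries varied among themselves, while those with LPS lay at 97.3% or above. With LPS and CCM the shares were 97.9% ± 0.582 in WT and 97.1% ± 1.63 in KO, the lowest library being KO replicate 6 at 93.9%.

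**Figure D2:**
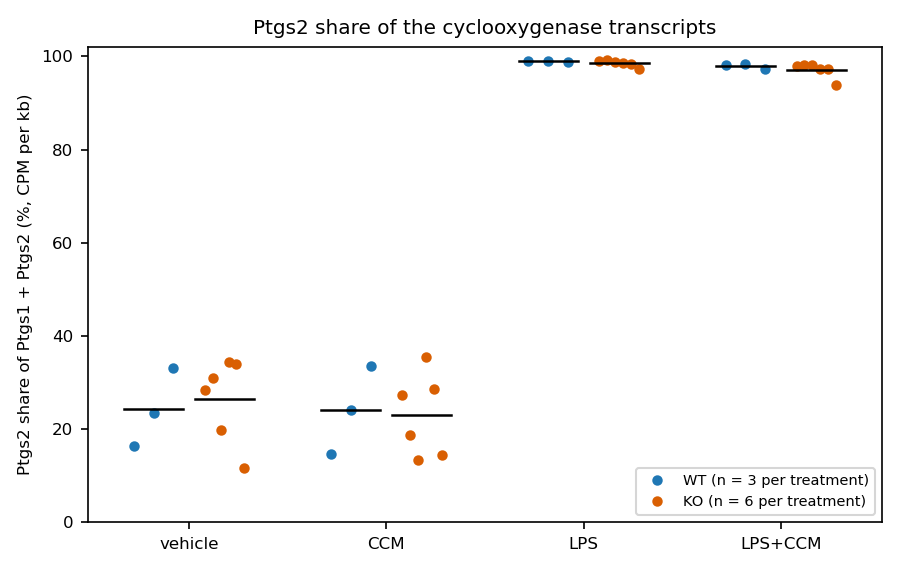
Share of Ptgs2 in the summed CPM per kb of Ptgs1 and Ptgs2 (y axis, percent, from 0) in each library, by treatment and genotype, with group means as lines. Without LPS the share is 11.6 to 35.5%, and with LPS, alone or with CCM, it is 93.9% or more.

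The 2 other synthases fell. Hpgds (chromosome 6, 65117293 to 65144908, minus strand) was at 189, 177 and 165 CPM in WT vehicle libraries and at 68.9, 57.0 and 58.3 CPM with LPS, a change of -1.53 (SE 0.082, edgeR, adjusted p = 1.09e-07). In KO it went from 103, 170 and 193 CPM (lowest, median, highest) to 33.7, 52.2 and 71.5 CPM, a change of -1.62 (SE 0.179, adjusted p = 6.23e-06, edgeR). Neither genotype's groups overlapped. Tbxas1 (chromosome 6, 38875404 to 39084585, plus strand) went from 175, 160 and 160 CPM to 75.5, 81.5 and 77.8 CPM in WT, a change of -1.07 (SE 0.061, edgeR, adjusted p = 1.57e-07), with libraries tight in both groups. Its change in KO was -1.05 (SE 0.096, edgeR, adjusted p = 9.35e-07), from a median of 169 to 79.7 CPM.

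Of the 2 receptors, Ptger2 (chromosome 14, 44988195 to 45003820, plus strand) fell with LPS, from 15.5, 13.7 and 12.5 CPM to 9.92, 9.19 and 10.4 CPM in WT. The groups did not overlap, and the change of -0.49 was the smallest of those past the threshold (SE 0.115, edgeR, adjusted p = 0.00398). With all 36 libraries in 1 fit Ptger2 did not pass in WT (edgeR, adjusted p = 0.222). In KO it was -0.69 (SE 0.227, edgeR, adjusted p = 0.0237), lower in 6 of 6 same-numbered libraries, with adjusted p = 0.0824 without replicate 2 and 0.0643 without replicate 3. Ptger4 (chromosome 15, 5206661 to 5244187, minus strand) was at 27.3, 28.3 and 26.3 CPM with vehicle and at 21.6, 21.5 and 30.6 CPM with LPS in WT. The third LPS library lay above each vehicle library and the other two below them, and the difference was -0.14 (95% interval -0.42 to 0.15, edgeR, adjusted p = 0.369). Without that library it was -0.33 (edgeR, adjusted p = 0.00849). In KO the difference was -0.21 (interval -0.56 to 0.13, edgeR, adjusted p = 0.3). Scaled by total counts alone, the median of all genes shifted to -0.465 in WT and -0.438 in KO, and Ptger4 passed as lower at -0.55 and -0.59.

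All 3 leukotriene genes fell. Alox5 (chromosome 6, 116410077 to 116461178, minus strand) went from 7.87, 7.15 and 6.81 CPM to 4.13, 2.63 and 4.05 CPM in WT, a change of -1.01 (SE 0.192, edgeR, adjusted p = 0.00108). Its KO change was -1.18 (SE 0.217, edgeR, adjusted p = 0.000514), and neither genotype's groups overlapped. Alox5ap (chromosome 5, 149264767 to 149288153, plus strand) went from 118, 103 and 98.9 CPM to 47.3, 46.9 and 41.4 CPM in WT, a change of -1.23 (SE 0.082, edgeR, adjusted p = 5.3e-07). In KO the median went from 109.8 to 49.4 CPM, a change of -1.11 (SE 0.134, edgeR, adjusted p = 1.38e-05).

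Ltc4s (chromosome 11, 50236461 to 50238616, minus strand) was the lowest of the 10 with LPS, with 5 to 19 counts per WT LPS library. Its WT levels went from 3.46, 1.99 and 2.30 CPM to 0.768, 0.216 and 0.762 CPM, a change of -2.16 (SE 0.419, edgeR, adjusted p = 0.00124), without overlap. In KO the change was -2.02 (SE 0.554, edgeR, adjusted p = 0.00857), lower in 6 of 6 same-numbered libraries, and the groups overlapped because KO replicate 6 with LPS, at 2.47 CPM, lay above the lowest vehicle library at 1.91 CPM. Without replicate 6 the change was -1.91 (edgeR, adjusted p = 3.74e-05).

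Cells other than macrophages can carry several of these genes: mast cells and eosinophils Hpgds and Ltc4s, platelets Ptgs1 and Tbxas1, and neutrophils Alox5 and Alox5ap. The 8 mast cell markers summed to 4.08 to 15 CPM, with Mcpt4 at 0 in all libraries and Tpsb2, Tpsab1 and Cma1 at a median of 0. In WT they were at 9.19 to 12.3 CPM with vehicle and at 10.9 to 13.6 CPM with LPS. The 4 eosinophil markers went from 63.8 to 73 CPM with vehicle to 39.3 to 47.2 CPM with LPS in WT, and the 5 platelet markers from 72.7 to 106 CPM to 88.8 to 128 CPM. Siglecf led the eosinophil sum (median 29.8 CPM over all libraries), while Epx was at 0 to 1.16 CPM. The 7 neutrophil markers, with Ly6g at 0 to 0.58 CPM, summed to 342 to 361 CPM with vehicle and to 202 to 212 CPM with LPS in WT, and to 319 to 551 and 170 to 325 CPM in KO. The eosinophil and neutrophil sums thus moved the same way as Hpgds, Ltc4s, Alox5 and Alox5ap. The mast cell and platelet sums overlapped between vehicle and LPS in WT and did not fall with Hpgds, Ltc4s, Ptgs1 and Tbxas1. What part these cells had in those changes was not tested. The 5 fibroblast markers were highest in WT replicate 3 with vehicle (1380 CPM) and with CCM (812 CPM). In KO they were highest in replicate 4 with vehicle (1400 CPM) and with CCM (1180 CPM). The same libraries held the highest Ptgs2 of those groups, at 35.2, 24.4, 42.5 and 30.6 CPM. With LPS, alone or with CCM, this held in WT and not in KO. The part of fibroblasts in the Ptgs2 values was not tested.

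Compared per kb of exon, the 10 genes changed order with LPS. In WT vehicle libraries Alox5ap led at 74.9 ± 6.93 CPM per kb (SD, n = 3), then Hpgds at 27.6 ± 1.84, Tbxas1 at 18.1 ± 0.937 and Ptgs1 at 14.8 ± 1.205. Ptgs2 was at 4.96 ± 2.41 CPM per kb and Ptges, at 1.26 ± 0.176, was the lowest. With LPS, Ptgs2 led at 364 ± 38.6 CPM per kb, then Ptges at 189 ± 6.81 and Alox5ap at 31.8 ± 2.32, and Ltc4s was the lowest at 0.574 ± 0.313.

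CCM given alone was compared with vehicle next. In unstimulated WT macrophages 0 of the 10 genes passed (edgeR), where 0.057% of 14024 genes did. Before adjustment, 3 had a p under 0.05 (Ptgs1, Ptger2 and Alox5), as did 1404 of all 14024 genes. DESeq2 called 2 and limma voom with quality weights 0, beside 247 and 11 genes over the whole table. The groups did not overlap for 4 genes, against 16.4% of all genes.

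With CCM in WT, the platelet markers were at 68.1 to 72.2 CPM, under the 72.7 to 106 CPM with vehicle, and the mast cell markers at 5.89 to 6.33 CPM, under 9.19 to 12.3 CPM. In KO both sums overlapped between the groups, at 53.8 to 140 and 80 to 125 CPM for platelets and at 5.16 to 9.99 and 5.55 to 14.3 CPM for mast cells (CCM, then vehicle). The neutrophil markers overlapped with vehicle in WT (251 to 375 against 342 to 361 CPM). The part of these cells in the values that follow was not tested.

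Ptgs1 was at 41.9, 42.3 and 40.9 CPM with CCM in WT, beneath each of the vehicle libraries given above, a difference of -0.48 (SE 0.071, 95% interval -0.64 to -0.32, edgeR, adjusted p = 0.0752). In KO the CCM libraries lay at 39.7, 43.4 and 52.5 CPM (lowest, median, highest), and the difference was the same, -0.48 (SE 0.107, edgeR, adjusted p = 0.605), lower in 6 of 6 same-numbered libraries. Without KO replicate 6 it was -0.53 (edgeR, adjusted p = 0.00929). Alox5 was at 5.69, 5.09 and 4.53 CPM with CCM in WT, also beneath each vehicle library, a difference of -0.53 (SE 0.141, edgeR, adjusted p = 0.237), and in KO it differed by -0.52 (SE 0.197, edgeR, adjusted p = 1), lower in 6 of 6.

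Ptger2 was at 21.9, 19.1 and 17.7 CPM with CCM in WT, above each vehicle library, a difference of 0.48 (SE 0.11, edgeR, adjusted p = 0.167). In KO the difference was 0.44 (SE 0.237, edgeR, adjusted p = 1), higher in 5 of 6 same-numbered libraries, the exception being replicate 6. Ptgs2 was at 8.49, 15.8 and 24.4 CPM with CCM in WT, so the groups overlapped (-0.50, SE 0.392, edgeR, adjusted p = 0.705). That value was -0.933 without CCM replicate 3 and -0.023 without vehicle replicate 3. In KO Ptgs2 differed by -0.76 (SE 0.429, edgeR, adjusted p = 1), lower in 5 of 6.

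In unstimulated KO macrophages 0 of the 10 genes passed (edgeR), as did 0% of all 13799 genes. An unadjusted p under 0.05 was found for 2 of the 10, and for 333 of all genes. DESeq2 called 1 and voom 1, beside 24 and 299 genes over the whole table. The groups overlapped for all 10 genes (0.377% of all genes did not overlap). Same-numbered KO libraries deviated together here. A fit that blocks on the replicate number passed 3 genes, beside 3.11% of all genes. They were Ptgs1 (-0.49, edgeR, adjusted p = 0.00133), Ptgs2 (-0.81, edgeR, adjusted p = 0.0174) and Alox5 (-0.52, edgeR, adjusted p = 0.0205).

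The comparison of LPS with CCM against LPS alone addressed what the compound did in stimulated cells, and it shares its LPS libraries with the LPS comparison above. In WT macrophages CCM lowered Ptgs2 and raised Ptger2, Ptger4 and Ptges, so 4 of 10 genes passed (edgeR), where 11.9% of 13579 genes did, 4.15% as higher and 7.78% as lower. The groups did not overlap for 7 genes, against 30.5% of all genes. The median difference of the 10 genes was 0.09, beside 0.01 over all genes. The platelet markers went from 88.8 to 128 CPM with LPS to 46.9 to 90.1 CPM with both agents in WT, the mast cell markers from 10.9 to 13.6 to 6.01 to 11.4 CPM, and the neutrophil markers from 202 to 212 to 180 to 208 CPM, with overlap in each, and their part in the changes below was not tested.

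**Figure D3:**
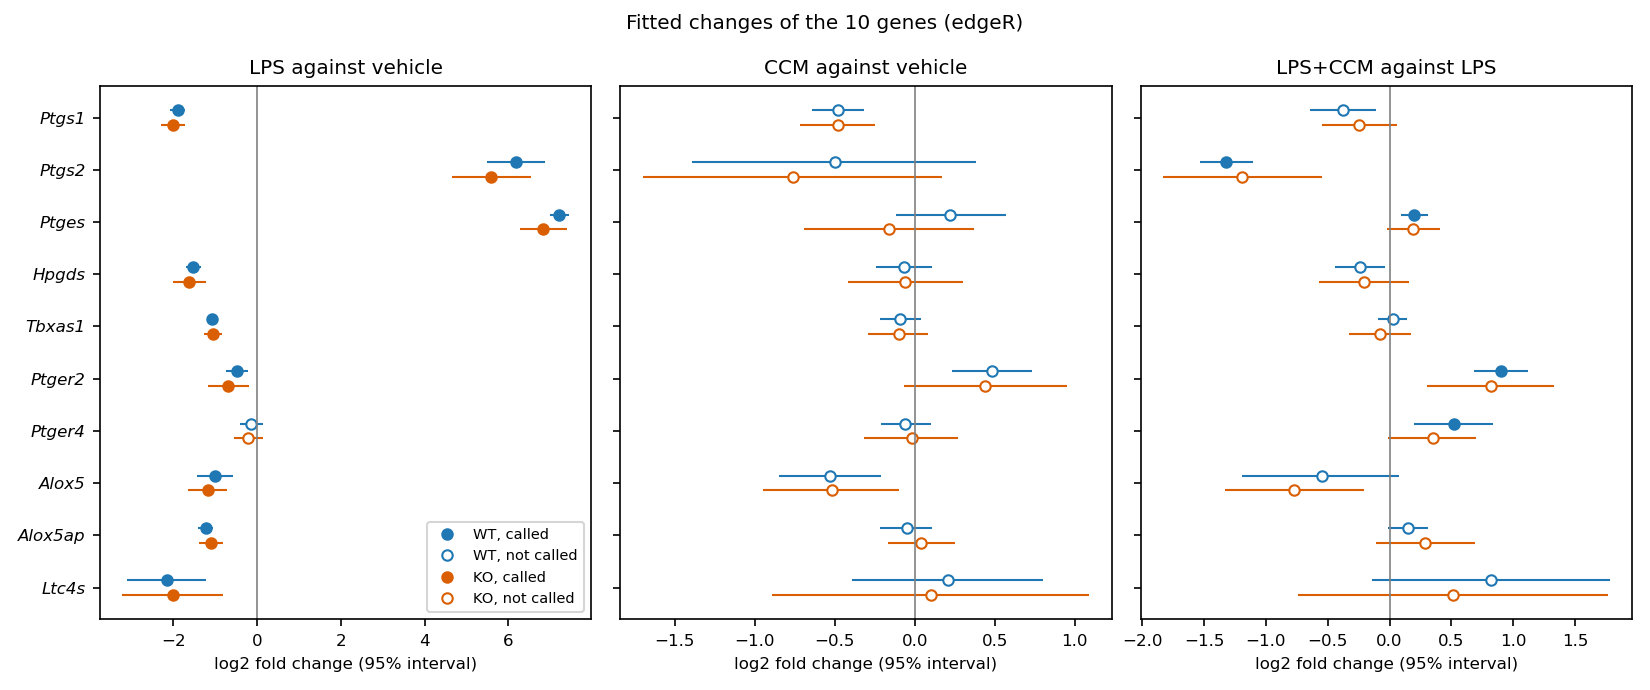
Fitted log2 fold change of each gene with its 95% interval (x axis) for LPS against vehicle, CCM against vehicle, and LPS with CCM against LPS, in WT (blue) and KO (orange), filled where the adjusted p was at most 0.05 (edgeR). The left panel has 9 filled points per genotype, the middle panel none, and the right panel 4 in WT and 0 in KO.

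Ptgs2 was at 749, 678 and 580 CPM in the WT libraries with LPS and CCM, each under the lowest LPS library at 1463 CPM and each far above the vehicle libraries. The change was -1.32 on the log2 scale (SE 0.097, edgeR, adjusted p = 4.29e-05), a level of 0.402 times that with LPS alone, and lower in 3 of 3 same-numbered libraries. In KO the libraries with both agents lay at 263, 624 and 877 CPM (lowest, median, highest) and overlapped the LPS libraries through replicate 6, which was the lowest of both groups. Its fitted difference was -1.19 (SE 0.299, interval -1.83 to -0.55, edgeR, adjusted p = 0.156), lower in 6 of 6 same-numbered libraries. Without replicate 6 it was -1.18 and passed (edgeR, adjusted p = 0.00363).

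Ptger2 was at 19.5, 18.9 and 16.6 CPM in the WT libraries with both agents against 9.92, 9.19 and 10.4 CPM with LPS alone, so the groups were apart and the level lay above that with vehicle in each library. The change was 0.90 (SE 0.1, 1.87-fold, edgeR, adjusted p = 0.000285). In KO it was at 8.53, 15.4 and 17.2 CPM (lowest, median, highest) against 3.32, 8.88 and 10.5 CPM, a difference of 0.82 (SE 0.24, interval 0.30 to 1.33, edgeR, adjusted p = 0.271), higher in 6 of 6. Replicate 6 was again the lowest of both groups, and without it the change was 0.79 (edgeR, adjusted p = 0.0049).

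Ptger4 was at 31.5, 33.4 and 41.3 CPM in WT with both agents, each above the LPS libraries, the highest of which held 30.6 CPM. The change was 0.52 (SE 0.143, edgeR, adjusted p = 0.0401). It no longer passed without LPS replicate 1, LPS replicate 2, LPS+CCM replicate 2 or LPS+CCM replicate 3 (edgeR, adjusted p = 0.088, 0.15, 0.0968 and 0.138). The KO difference was 0.35 (SE 0.164, interval -0.01 to 0.70, edgeR, adjusted p = 0.639), higher in 6 of 6.

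Ptges was at 892, 818 and 843 CPM in WT with both agents, again without overlap, a change of 0.20 (SE 0.048, 1.15-fold, edgeR, adjusted p = 0.025). It did not pass without LPS replicate 2, LPS replicate 3, LPS+CCM replicate 1 or LPS+CCM replicate 3 (edgeR, adjusted p = 0.118, 0.0703, 0.0965 and 0.0585). In KO it differed by 0.19 (SE 0.098, edgeR, adjusted p = 0.681), higher in 6 of 6. The 2 genes that LPS raised most thus moved in opposite directions with CCM in WT.

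The other 6 genes did not pass. Ptgs1 was at 11.4, 10.2 and 13.96 CPM in WT with both agents, under each LPS library, a difference of -0.38 (SE 0.118, edgeR, adjusted p = 0.0666), and passed without LPS+CCM replicate 3 (-0.51, edgeR, adjusted p = 0.0188). Hpgds differed by -0.24 (SE 0.091, edgeR, adjusted p = 0.126), and passed without LPS+CCM replicate 1 (-0.33, edgeR, adjusted p = 0.0434). Alox5 differed by -0.55 in WT (SE 0.286, edgeR, adjusted p = 0.263) and by -0.77 in KO (SE 0.26, edgeR, adjusted p = 0.377), lower in 3 of 3 and 6 of 6 same-numbered libraries. Tbxas1, Alox5ap and Ltc4s differed by 0.03, 0.15 and 0.82 in WT. The Ltc4s value was 0.405 without LPS replicate 2, a library with 5 counts of the gene, and that of Alox5 was -0.299 without LPS+CCM replicate 2.

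Between same-numbered WT libraries the deviations from the group mean correlated at 0.122 to 0.283 (3 pairs), a little over the cut of 0.1 used for pairing. The fit that blocks on the replicate number passed 7 genes, beside 23.7% of all genes. The added ones were Ptgs1 (edgeR, adjusted p = 0.0135), Hpgds (edgeR, adjusted p = 0.00115) and Alox5 (edgeR, adjusted p = 0.0472). With all 36 libraries in 1 fit 0 of the 10 passed in WT, and Ptgs2 had an adjusted p of 0.63 (edgeR). In KO macrophages 0 of the 10 genes passed (edgeR), where 0.112% of 13386 genes did, and the groups overlapped for all 10 (1.31% of all genes did not). Before adjustment, 3 had a p under 0.05 in KO (Ptgs2, Ptger2 and Alox5), as did 1070 of all 13386 genes. DESeq2 called 1 of the 10 there and voom 2, beside 180 and 768 genes over the whole table, where edgeR called 15.

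**Figure D4:**
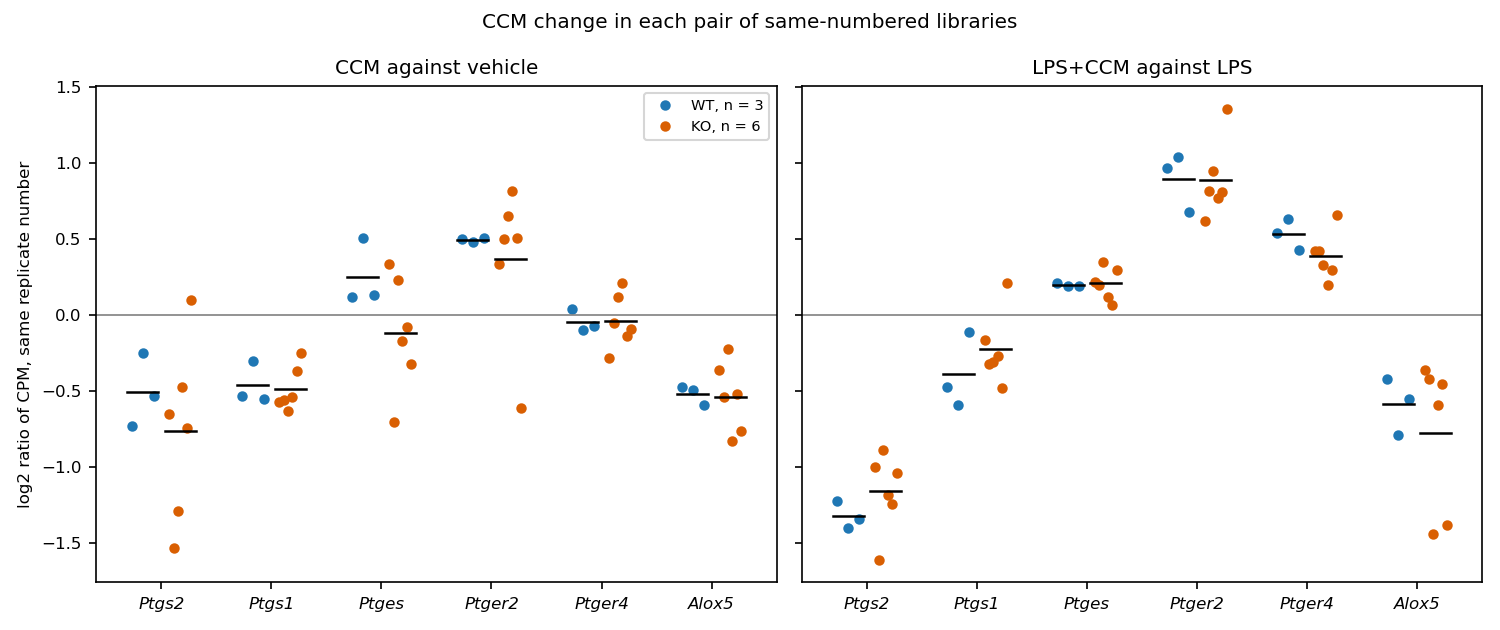
Log2 ratio of CPM between libraries of the same replicate number for 6 genes (x axis), CCM against vehicle (left) and LPS with CCM against LPS (right), in WT (blue, n = 3) and KO (orange, n = 6), with means as lines. On the right every point of Ptgs2 and Alox5 lies under 0 and every point of Ptges, Ptger2 and Ptger4 above it, and the single Ptgs1 point above 0 is KO replicate 6.

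Whether CCM acted differently with and without LPS was tested as an interaction, and 0 of the 10 genes passed in WT (edgeR, 2.09% of 14747 genes did) or in KO (0.00685% of 14588). In WT 2 genes had an unadjusted p under 0.05, Ptger4 and Ptger2, and in KO 0 did. Over all genes, 2060 of 14747 did in WT and 536 of 14588 in KO. DESeq2 and voom called 0 of the 10 in both. Over the whole table DESeq2 called 707 genes in WT and 12 in KO, and voom 447 and 100. The WT estimates were 0.56 for Ptger4 (SE 0.18, interval 0.18 to 0.95, edgeR, adjusted p = 0.143), 0.40 for Ptger2 (SE 0.153, edgeR, adjusted p = 0.237) and -0.82 for Ptgs2 (SE 0.426, interval -1.74 to 0.09, edgeR, adjusted p = 0.421). The Ptgs2 estimate was -1.311 without vehicle replicate 3 and -0.396 without CCM replicate 3. Without WT LPS replicate 3 the estimate for Ptger4 was 0.75 and passed (edgeR, adjusted p = 0.0207).

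KO and WT macrophages were compared directly with vehicle and under LPS, and 0 of the 10 genes passed in either comparison, as did 0% of all genes (edgeR). Before adjustment 0 of the 10 had a p under 0.05, and DESeq2 and voom called 0 of them. Over all genes, an unadjusted p under 0.05 was found for 118 of 14385 with vehicle and 105 of 13794 under LPS. The groups overlapped for all 10 genes in both, while 0.918% of all genes with vehicle and 1.13% under LPS did not overlap. With vehicle the estimates, KO against WT, ran from -0.12 for Hpgds to 0.61 for Ltc4s, and under LPS from -0.26 for Ptger2 to 0.73 for Ltc4s. KO replicate 6 was the highest KO library for Ltc4s in all 4 treatments, and without it the Ltc4s estimates were 0.013 with vehicle and 0.268 under LPS. Ptgs2 differed by 0.35 with vehicle (interval -0.72 to 1.41) and by -0.25 under LPS (interval -0.93 to 0.42), and the first was 0.097 without WT replicate 1 and 0.818 without WT replicate 3.

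The tests of whether the genotypes differed in their response gave 0 of 10 genes for LPS and 0 of 10 for CCM under LPS (edgeR, 0% of all genes in both), with 0 at an unadjusted p under 0.05 and 0 by DESeq2 or voom. Over all genes, an unadjusted p under 0.05 was found for 112 of 15093 for LPS and 72 of 14546 for CCM. DESeq2 and voom called 0 genes over the whole table. For the CCM change of Ptgs2 under LPS the difference between KO and WT was 0.14 (SE 0.445, interval -0.79 to 1.08). For Ptger2 it was -0.07 (SE 0.353, interval -0.81 to 0.68), for Ptger4 -0.16 (interval -0.73 to 0.41) and for Ptges 0.01 (interval -0.27 to 0.30). The LPS change of Ptgs2 differed by -0.59 between the genotypes (interval -1.83 to 0.65). These intervals are wide, and they do not show that the genotypes responded alike.

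The rest of the pathway was read from 57 further genes in 7 lists, among which phospholipases release arachidonic acid and transporters, dehydrogenases and receptors act after the synthases. With LPS in WT, 11 of 41 tested genes rose and 16 fell, and in KO 10 of 39 rose and 13 fell (edgeR, adjusted p of at most 0.05). Over all genes tested, 30.6% were higher and 32.4% lower in WT, and 22.4% higher and 24.7% lower in KO, so in WT the total was near that of all genes. The median change was -0.25 in WT and -0.11 in KO, beside -0.05 over all genes.

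Upstream of the cyclooxygenases, Pla2g4a, the cytosolic phospholipase that frees arachidonic acid, rose from 26.4 ± 1.23 to 116 ± 8.73 CPM in WT (SD, n = 3), a change of 2.15 (edgeR, adjusted p = 3.91e-09) beside 2.16 in KO. Daglb, a diacylglycerol lipase, fell by 2.95 on the log2 scale in WT (edgeR, adjusted p = 5.58e-09) and fell by 2.85 in KO. The lysosomal phospholipase Pla2g15 fell by 2.05 in WT (edgeR, adjusted p = 8.66e-10) and fell by 2.22 in KO. Among the other synthases, Ptges2 rose by 0.77 in WT (edgeR, adjusted p = 1.17e-05) and Cbr1 and Fam213b changed by -1.07 and -0.85 (edgeR, adjusted p = 1.25e-06 and 5.93e-05). In KO, Cbr1 fell by 1.10 (edgeR, adjusted p = 0.00582), and the values for Ptges2 and Fam213b, 0.69 and -0.91, did not pass (edgeR, adjusted p = 0.0681 and 0.102).

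Downstream, Hpgd, the dehydrogenase that inactivates prostaglandins, fell from 78.5 ± 6.62 to 4.34 ± 0.206 CPM, a change of -4.17 in WT (edgeR, adjusted p = 1.41e-10) and of -4.40 in KO. Ptgr2, a prostaglandin reductase, fell by 1.15 in WT (edgeR, adjusted p = 8.9e-06) and fell by 1.32 in KO. Abcc4, an exporter of prostaglandins, rose by 1.38 in WT (edgeR, adjusted p = 7.52e-07) and by 1.25 in KO. Ptgir, the prostacyclin receptor, rose by 1.64 in WT (edgeR, adjusted p = 2.8e-06) and by 1.54 in KO. Ptgr1, another prostaglandin reductase, did not pass in either genotype, at 0.13 in WT and 0.19 in KO (edgeR, adjusted p = 0.395 and 0.516).

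On the leukotriene side 6 of 8 tested genes for conversion and breakdown fell in WT and 1 rose, where 32.4% of all genes were lower and 30.6% higher. In KO 4 of 8 fell and 1 rose, beside 24.7% and 22.4% of all genes. These are counts over few genes and carry no test of the list. Abcc1, which exports leukotriene C, rose by 1.98 in WT (edgeR, adjusted p = 7.49e-08) and by 2 in KO. The microsomal glutathione transferases Mgst2 and Mgst3 changed by -1.35 and -1.14 in WT (edgeR, adjusted p = 0.000188 and 1.72e-05), with changes of -1.09 and -0.98 in KO. Of the receptors, Cysltr1 and Cysltr2, for cysteinyl leukotrienes, rose by 1.11 and 1.91 in WT (edgeR, adjusted p = 4.26e-06 and 1.79e-05) and by 1.07 and 1.86 in KO. Ltb4r1, for leukotriene B, fell by 0.78 in WT (edgeR, adjusted p = 0.012) and fell by 1.18 in KO. The epoxide hydrolase Ephx1 fell by 0.93 in WT (edgeR, adjusted p = 8.86e-05) and fell by 0.67 in KO.

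With CCM alone, 0 of 42 tested genes of these lists passed in WT and 0 of 40 in KO (edgeR), beside 0.057% and 0% of all genes. Under LPS in WT, CCM raised 4 of 40, namely Cbr1 (0.53), Ptgr1 (0.54), Pla2g15 (0.37) and Pla2g7 (0.21), with adjusted p-values of 0.00223, 0.0157, 0.00219 and 0.0115 (edgeR). It lowered 2 of 40, Cysltr2 (-0.85, edgeR, adjusted p = 0.015) and Alox12 (-0.79, edgeR, adjusted p = 0.0384). Over all genes tested 11.9% passed, 4.15% higher and 7.78% lower, so the total in the lists was near that of all genes. Cbr1 and Ptgr1 encode reductases that act on prostaglandins, among other substrates. In KO 0 of 39 passed under LPS, beside 0.112% of all genes. There the values of the 6 genes that passed in WT were 0.45, 0.79, 0.48, 0.28, -0.61 and -0.64 in the same order.

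**Figure D5:**
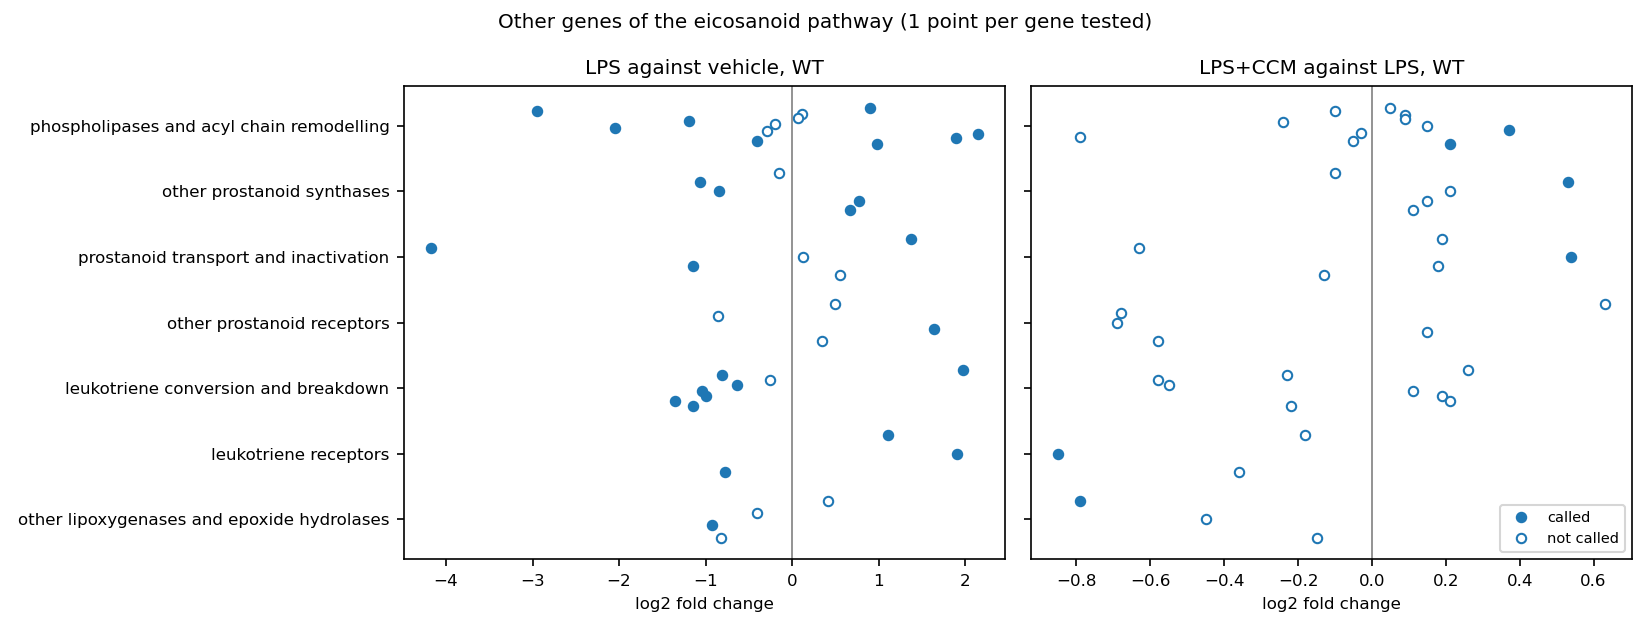
Log2 fold change (x axis) of each tested gene of the 7 further pathway lists (y axis) in WT, for LPS against vehicle (left) and LPS with CCM against LPS (right), filled where the adjusted p was at most 0.05 (edgeR). On the left 11 of 41 points are filled above 0 and 16 below it, with Hpgd lowest at -4.17, and on the right 4 of 40 are filled above 0 and 2 below it.

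Over all 36 libraries, the 3 of 11169 genes whose log2 levels followed Ptgs2 most closely were Sept11 (Pearson r = 0.996), Abtb2 (0.990) and Atp10a (0.989). For Alox5 they were Slc37a1 (0.892), Padi4 (0.890) and Mmp8 (0.888), and Mmp8 is also one of the neutrophil markers summed above. The libraries share the treatments and the replicates, so these values describe the data and carry no test.

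Some of these genes share exon bases with an antisense gene, and whether the counting used strand is not given, so their counts are uncertain to that extent. They are Ptgs1 (with Gm43621), Tbxas1 (Gm42962), Ptger2 (Gm49364 and Gm17173), Ptger4 (Gm15937 and Ttc33), Alox5ap (Gm19719) and Ltc4s (Gm26542). Ptgs2, Ptges, Hpgds and Alox5 share no exon bases with another annotated gene.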

How the data were processed

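The authors sequenced poly(A) RNA from both ends, and their deposited table holds raw counts per gene without normalization. Per the submitters' processing notes, fastp, HISAT2 2.0.5 and featureCounts 1.5.0-p3 were used with build mm10. The annotation release and strand use are not given in the sources used here.

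Counts were tested with edgeR 4.0.16 (quasi-likelihood, TMM scaling, filterByExpr) in R 4.3.3, each of 12 comparisons on its own groups, two-sided, with Benjamini-Hochberg adjustment over all genes tested and a threshold of 0.05. Levels are CPM on TMM factors set over all 36 libraries, and levels per kb divide by the deposited gene length. Intervals are 95%. Log2 CPM values used a prior count of 2. The functions were tested on simulated data. Replicates differed by more than counting noise, so their spread limits the precision.

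The genes and lists were chosen with earlier results of these data known. The text names all 10 genes and Arntl. Of each pathway list it names up to 3 genes past the threshold with the largest change and an average log2 CPM of at least 1 for LPS and for CCM under LPS in WT, with their KO values. It also names the 3 genes most like Ptgs2 and Alox5. Of 58 pathway symbols listed, 57 were in the table.

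Alternatives were DESeq2 1.42.0, RLE size factors, total counts alone, no filter beyond 1 count, 1 fit over all 36 libraries, limma 3.58.1 voom with quality weights, the replicate number as a block, and leaving out each library or replicate. Same-numbered libraries were taken as paired where each correlation of the deviations from the group mean was over 0.1, as for LPS in KO (lowest 0.245), CCM in unstimulated KO (0.259) and CCM under LPS in WT (0.122). Libraries with other numbers had median correlations of 0.121, 0.17 and -0.111 there.

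Positions are from GENCODE M21 (GRCm38) and promoter windows from RefSeq (GRCm38.p6). Protein sequences were not used here.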

Additional observations from a re-analysis of the deposited data

Results flagged for a closer look

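Of the 40 sets of 6 KO libraries, 1 for each gene and treatment, 7 held a library farther from the others than Dixon's 95% limit allows. For a single set, chance gives about 1 in 20. All 7 were replicate 6. The sets share libraries and replicates and are not independent, so 1 odd replicate can be counted several times. The count of 7 therefore carries no test.

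Hpgds was at 95.9 CPM in the KO CCM library of replicate 6, with the others at 151 to 176 CPM. Ptger2 was low in the same replicate, at 3.32 CPM with LPS against 8.29 to 10.5 CPM, and at 8.53 CPM with LPS and CCM against 14.7 to 17.2 CPM. Alox5ap was high there with LPS, at 69.6 CPM against 40.9 to 51.6 CPM. Ltc4s was high at 10.8 CPM with vehicle (others 1.91 to 3.17 CPM), at 8.72 CPM with CCM (2.93 to 3.77 CPM) and at 2.47 CPM with LPS (0.28 to 1.05 CPM).

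Beside these values, the lymphocyte markers of replicate 6 summed to 2.32 to 4.1 CPM, above the 0.623 to 2.24 CPM of all other libraries. Replicate 6 was also the highest KO library for the eosinophil markers with LPS (56.8 CPM, group median 42.7) and with LPS and CCM (57.1 CPM, median 38.6), and for the neutrophil markers with LPS (325 CPM, median 268) and with LPS and CCM (294 CPM, median 263). For neither list was it the highest with vehicle or with CCM alone. Its mast cell markers, at 5.16 to 11.5 CPM with Mcpt4 at 0, were not the highest of the KO libraries in any treatment. The part of other cells in these values was not tested. Replicate 6 also had the lowest Arntl of the KO libraries in each treatment, and whether that bears on its other values was not tested.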

How the results depend on the processing

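Leaving aside the fits without 1 library or replicate, LPS passed 8 to 10 of the 10 genes, with Ptger4 added by total counts alone in both genotypes and Ptger2 lost with all 36 libraries in 1 fit in WT. With CCM in unstimulated WT, DESeq2 called 2 genes and the fit with no filter 2, against 0. In unstimulated KO, DESeq2 called 1 and voom 1. Under LPS in WT voom called 5, the fit with no filter 6 and the fit over all 36 libraries 0, against 4, and under LPS in KO DESeq2 called 1, voom 2 and the fit over all 36 libraries 1, against 0. Over all genes, DESeq2 called 247 for CCM in unstimulated WT, 24 in unstimulated KO and 180 under LPS in KO. Voom called 299 in unstimulated KO, 1909 under LPS in WT and 768 under LPS in KO. The main fit called 8 in unstimulated WT, 0 in unstimulated KO, 1621 under LPS in WT and 15 under LPS in KO. The interaction of LPS and CCM in WT gave 2 genes with no filter, Ptgs2 and Ptger4. The cause was not tested.

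With the replicate number as a block, the counts were 3 for CCM in unstimulated KO and 7 under LPS in WT, beside 3.11% and 23.7% of all genes. The count for LPS in KO was 9, the same as without it, beside 71.6% of all genes. In these 3 comparisons same-numbered libraries were taken as paired. Where they did not meet that rule, the block gave 3 genes for CCM in unstimulated WT (Ptgs1, Ptgs2 and Ptger2), beside 1.82% of all genes. It gave 3 under LPS in KO (Ptgs2, Ptger2 and Ptger4) and 9 for LPS in WT, beside 5.8% and 63.6%. For the interactions of LPS and CCM in WT and KO it gave 0, beside 3.72% and 0.555%. The rule is a cut on correlations and does not show that such libraries came from different mice. Under LPS in KO the correlations of same-numbered libraries ran from -0.0563 to 0.719. For the 2 interactions with genotype, the block gave 0, as it did for 0% of all genes. No paired analysis was possible for KO against WT because the genotypes are separate mice that share only numbers.

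Without 1 library or replicate, LPS passed 9 to 10 genes in WT and 8 to 9 in KO, CCM under LPS in WT 2 to 4 (2 without LPS replicate 2), CCM in unstimulated KO 0 to 1 and under LPS in KO 0 to 2 (the highest without KO replicate 6), and the interaction in WT 0 to 1. The other comparisons gave 0 throughout.

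Changes of sign were confined to values that did not pass. With voom these were Ltc4s -0.062 for CCM under LPS in KO, Alox5 0.086 and 0.06 for the LPS by CCM interaction in WT and KO, Ltc4s -0.428 for that in KO, Ptger2 0.022 for KO against WT with vehicle, Ptger4 0.029 under LPS, Tbxas1 -0.035 and Ptger4 0.068 for genotype by LPS, and Ptges -0.03, Alox5 0.097 and Alox5ap -0.001 for genotype by CCM. With total counts alone they were Ptges 0.064 and Alox5 0.057 for LPS by CCM in WT, Tbxas1 -0.023 and Alox5ap -0.01 for KO against WT with vehicle, Ptgs1 -0.007 under LPS, and Ptges -0.055 and Hpgds -0.015 for genotype by CCM. With DESeq2 and with RLE size factors they were Tbxas1 -0.002 for LPS by CCM in KO and Ptges -0.001 for genotype by CCM.

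Leave-out ranges that crossed 0 were -0.099 to 0.021 (Alox5ap) and -0.002 to 0.465 (Ltc4s) for CCM in unstimulated WT, and -0.07 to 0.017 (Ptger4) in KO. For LPS by CCM in WT they were -0.049 to 0.184 (Ptgs1), -0.119 to 0.066 (Ptges) and -0.244 to 0.208 (Alox5). For KO against WT they were -0.003 to 0.099 (Tbxas1) and -0.177 to 0.011 (Ptger2) with vehicle, and -0.046 to 0.078 (Ptgs1), -0.254 to 0.038 (Ptger4) and -0.099 to 0.196 (Alox5) under LPS. For genotype by LPS they were -0.034 to 0.087 (Tbxas1), -0.186 to 0.173 (Ptger4) and -0.106 to 0.518 (Ltc4s), and for genotype by CCM -0.024 to 0.041 (Ptges), -0.005 to 0.273 (Alox5ap) and -0.648 to 0.144 (Ltc4s).

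Depth limits Ltc4s most, with as few as 5 counts in a library.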
